A study of Arabidopsis thaliana with 12 samples.

Results

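The genes described are 4 nuclear genes for proteins that act on organelle RNA: AT3G26630 and AT3G49740 of the pentatricopeptide repeat (PPR) family, and AT5G55580 and AT1G62150 of the mTERF family. Each was taken from the array feature whose annotation lists that gene and no other, which gave 4 of the 692 features with a single gene among 3439 features in all. Plants of the laf6 mutant, which according to the sample descriptions has no atABC1 transporter, were set against WT plants. Both were Arabidopsis thaliana of the Landsberg ecotype, both were dark adapted, and each group had 6 arrays of total RNA. Age, organ, light regime before darkness and the number of plants per array are not stated in the labels, and nothing says that the arrays came from separate plants. The spread between arrays may therefore be technical. In bulk RNA, fewer cells of a type and less RNA per cell cannot be told apart.

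PPR proteins are built from tandem short helical repeats and bind RNA of chloroplasts and mitochondria with sequence preference. Different members are known to edit, splice, cleave, stabilise or help translate particular organelle transcripts. mTERF proteins are also helical repeat proteins, named after a mitochondrial transcription termination factor first studied in human cells. Plant members are known to act in transcription, intron splicing and ribosome assembly in plastids and mitochondria. AT5G55580 is mTERF9, a plastid protein known for its role in chloroplast development and in assembly of the chloroplast ribosome. The atABC1 gene, now called SUFB, encodes a part of the iron-sulfur cluster assembly machinery of plastids, and laf6 plants are known for an altered response to far-red light.

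The 4 genes were chosen by their laf6 against WT differences in intensity on these same arrays. Their values are therefore given as a description, without a test. Of the 4 genes, 1 PPR gene and 1 mTERF gene were higher in laf6, and 1 of each family was lower. The PPR gene AT3G26630 was 2.33 times as bright in laf6 as in WT by the mean of the deposited intensities, and mTERF9 was 1.23 times as bright. The PPR gene AT3G49740 was 4.51 times as bright in WT as in laf6, and the mTERF gene AT1G62150 was 2.07 times as bright in WT. Deposited values were shifted between the groups as a whole, as described below. After quantile normalization the laf6 to WT ratio of means was 1.88 for AT3G26630 and 1.67 for mTERF9. The WT to laf6 ratio was then 2.99 for AT3G49740 and 1.49 for AT1G62150.

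The deposited intensities are linear values without an absolute unit, which ran from 0 to about 100 on each array. The median intensity of an array was 0.178 to 0.202 in laf6 and 0.218 to 0.289 in WT. The 20 brightest features held 39.3% to 41.6% of the summed intensity on laf6 arrays and 29.7% to 31.6% on WT arrays, and 491 to 674 features were listed at 0 on laf6 arrays against 447 to 540 on WT arrays. Because the medians differed by group, the main values were quantile normalized, raised to a floor of 0.00597 and converted to log2. Under this setting the median log2 difference of all features, laf6 minus WT, was -0.02, and with the values as deposited it was -0.45. Arrays with adjacent replicate numbers (1 and 2, 3 and 4, 5 and 6) resembled each other more than other pairs, with a mean Spearman correlation over features of 0.874 against 0.851 in laf6 and 0.940 against 0.920 in WT. SUFB itself had no feature in the annotation, so its transcript gave no check of the genotype, and none of 13 listed markers of seed, flower, root, guard cells, senescence and prolonged darkness had a single-gene feature.

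The feature annotated as AT3G26630 was among the brightest of every array. The annotation is an older one and may be wrong for this feature, since a second feature that also lists the gene, described below, was dim; the values that follow are those of the feature, and whether they are those of the PPR transcript was not tested. Its deposited intensity in laf6 was 32.4 at the lowest, 37.7 at the median and 44.7 at the highest, against 13.4, 16.6 and 19.2 in WT. Every laf6 array lay above every WT array, which was so for 4.97% of all features in that direction. The means were 37.8 ± 4.75 in laf6 and 16.3 ± 2.34 in WT (SD, n = 6 each), a coefficient of variation of 12.6% in laf6 and 14.4% in WT. By brightness the feature ranked 19 to 21 on laf6 arrays and 32 to 38 on WT arrays.

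Quantile normalization gives features of the same rank the same value, so it bears strongly on a feature at the top of the range. The normalized intensities of AT3G26630 were 31.2 ± 0.908 in laf6 and 16.6 ± 1.05 in WT, and the log2 difference was 0.91 ± 0.06 (SE). The groups did not overlap on this scale either, as for 8.52% of all features with laf6 above WT. It was 1.22 ± 0.12 as deposited, 1.62 ± 0.10 after division by each array's median and 1.65 ± 0.08 after division by the 75th percentile. Relative to the median of all features these were 0.93 with quantile normalization, 1.67 as deposited and 1.73 with either of the other 2. The direction was the same under each of these scalings. Set against the spread between quantile-normalized arrays, the size varied more than for any other of the 4 genes. That spread was narrow for this feature, with a coefficient of variation of 2.91% in laf6 against 12.6% as deposited. In log2 units AT3G49740 varied about as much, from -1.61 with quantile normalization to -2.37 as deposited.

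AT3G49740 was a dim feature. Its deposited intensity in laf6 was 0.0179 at the lowest, 0.0423 at the median and 0.0728 at the highest, against 0.150, 0.185 and 0.252 in WT. Every laf6 array lay below every WT array, which was so for 17.1% of all features as deposited and for 9.36% after normalization. No array was listed at 0 for this gene. The coefficient of variation of the deposited values was 55.0% in laf6 and 18.7% in WT, so on this scale the laf6 arrays differed more among themselves in relative terms. After normalization it was much closer, at 35.8% in laf6 and 30.0% in WT. The feature ranked 2433 to 2747 of 3439 by brightness on laf6 arrays and 1579 to 2308 on WT arrays.

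After normalization AT3G49740 stood at 0.0574 ± 0.0206 in laf6 and 0.172 ± 0.0515 in WT (SD, n = 6 each), a log2 difference of -1.61 ± 0.28 (SE). The laf6 arrays of replicates 3 and 4 were the lowest, with deposited intensities of 0.0179 and 0.0180. The size of the difference for this gene depended on how weak signals were weighed: with an offset of 0.1 added before log2 it was -0.78, and as deposited it was -2.37, or -1.91 relative to the median of all features.

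**Figure D1:**
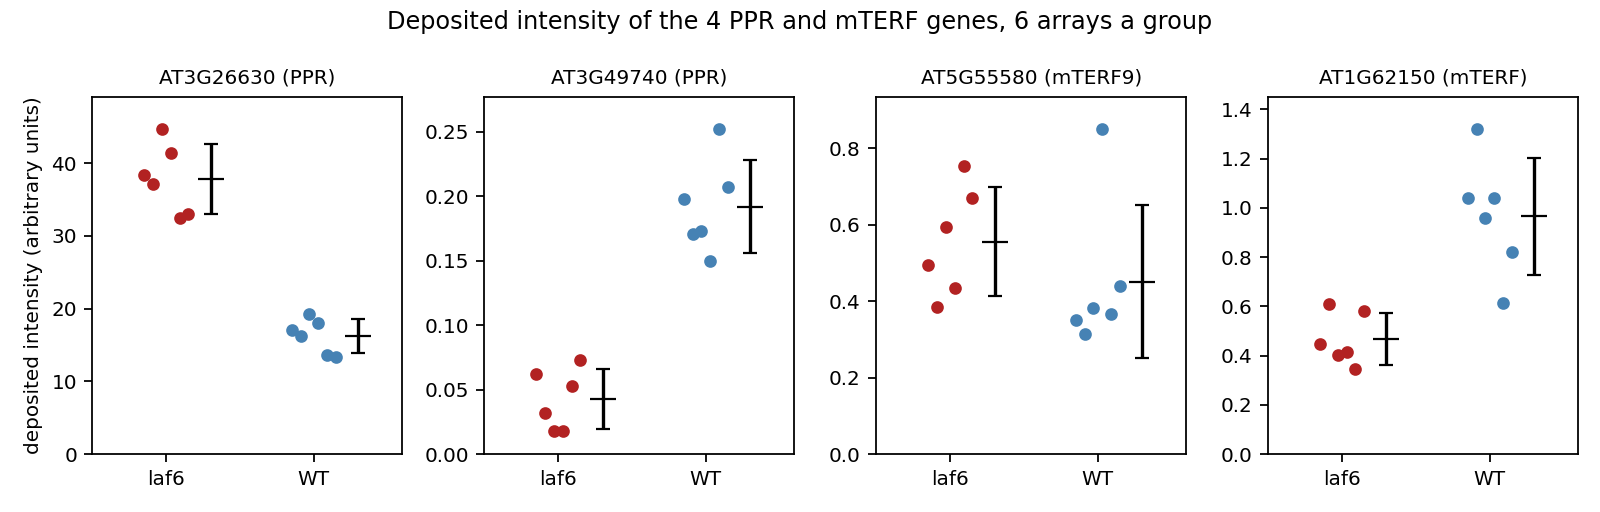
Deposited intensity (arbitrary units, linear axes from 0) of AT3G26630, AT3G49740, AT5G55580 and AT1G62150. Points are the 6 laf6 and 6 WT arrays, and the black bar is the mean ± SD. The groups do not overlap for AT3G26630 (laf6 above WT), AT3G49740 and AT1G62150 (laf6 below WT), and they overlap for AT5G55580, where the highest of all 12 arrays is a WT array at 0.850.

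AT5G55580, mTERF9, differed less between the groups. Its deposited intensity in laf6 was 0.384 at the lowest, 0.545 at the median and 0.753 at the highest, against 0.315, 0.373 and 0.850 in WT. The groups overlapped: WT replicate 4 was the highest of all 12 arrays, while the other WT arrays lay between 0.315 and 0.439. The deposited means of 0.555 ± 0.143 in laf6 and 0.451 ± 0.200 in WT (SD, n = 6 each) differed by less than the SD within the WT group.

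After normalization mTERF9 stood at 0.654 ± 0.177 in laf6 and 0.391 ± 0.140 in WT, a log2 difference of 0.76 ± 0.24 (SE). In laf6, 3 of 6 arrays lay above every WT array. The direction was the same as deposited, where the log2 difference was 0.35 ± 0.25, or 0.80 relative to the median of all features. Leaving out WT replicate 4 gave 0.92. The laf6 arrays of replicates 5 and 6 were the highest, with a normalized mean of 0.857 against 0.528 for laf6 replicates 1 and 2 and 0.577 for laf6 replicates 3 and 4. Leaving out replicates 5 and 6 of both groups, a choice made after these values were seen that takes away the highest laf6 arrays, gave a log2 difference of 0.61 ± 0.30, and leaving out replicates 1 and 2 gave 0.72 ± 0.29.

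AT1G62150, the other mTERF gene, was lower in laf6. Its deposited intensity in laf6 was 0.347 at the lowest, 0.429 at the median and 0.609 at the highest, against 0.615, 1.0 and 1.32 in WT. As deposited the groups did not overlap, although the highest laf6 array (0.609, replicate 2) and the lowest WT array (0.615, replicate 5) were nearly level. Such a separation, with laf6 below WT, was found for 17.1% of all features as deposited. The deposited means were 0.466 ± 0.105 in laf6 and 0.966 ± 0.236 in WT (SD, n = 6 each).

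After normalization AT1G62150 stood at 0.553 ± 0.139 in laf6 and 0.826 ± 0.160 in WT, a log2 difference of -0.59 ± 0.18 (SE). Then 4 of 6 laf6 arrays lay below every WT array, and laf6 replicates 2 and 6, at 0.749 and 0.693, lay above WT replicate 5, at 0.619. The larger difference as deposited, -1.04 ± 0.20, was -0.59 relative to the median of all features in that setting.

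**Figure D2:**
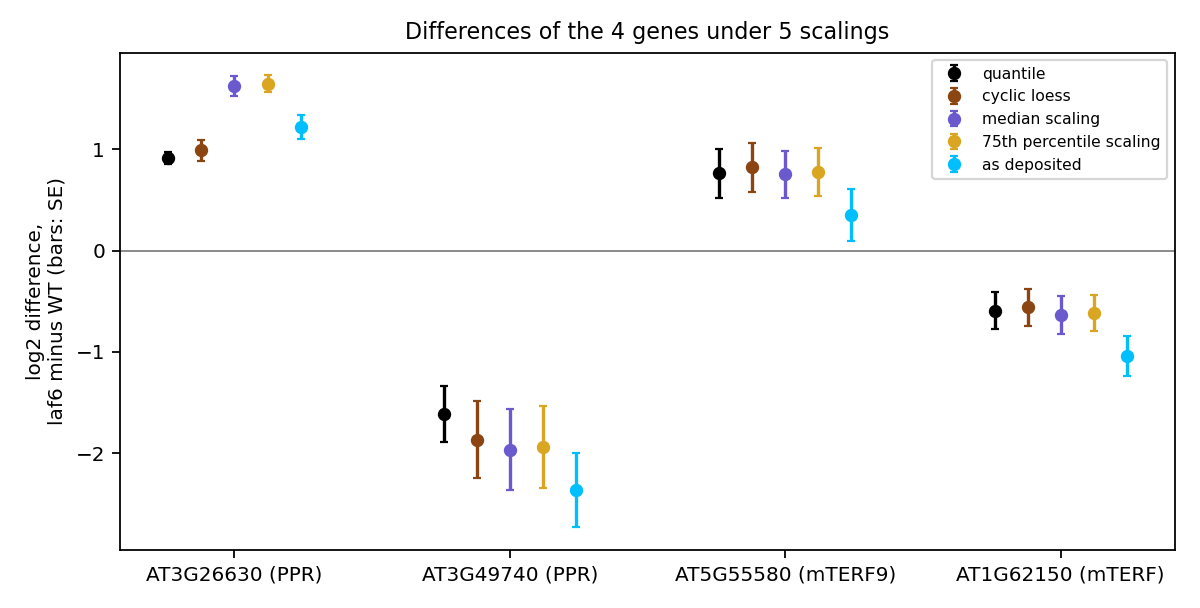
Log2 difference, laf6 minus WT, of the 4 genes under 5 scalings of the arrays. Points are the fitted differences and bars their SE, from 6 laf6 and 6 WT arrays. Each gene keeps its sign under the 5 scalings. AT3G26630 moves from 0.91 with quantile normalization to 1.65 with 75th percentile scaling, and mTERF9 is nearest to 0, at 0.35, as deposited.

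The 4 genes shared a direction in pairs that crossed the families. When each array's deviation from its group mean was taken instead of the level, Pearson correlations between the 4 genes over the 12 arrays ran from -0.35 (mTERF9 and AT1G62150) to 0.15 (AT3G49740 and AT1G62150). These arrays share scaling and, by adjacent number, possibly a sample, so the correlations are a description. The correlations of the levels themselves ran from -0.87 to 0.70 and carry the group differences that chose the genes.

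A further feature lists AT3G26630 together with AT2G42920, and another lists AT5G55580 together with AT1G78930, so neither signal can be assigned to 1 gene. The feature listing AT3G26630 and AT2G42920 had deposited intensities of 0.0643 ± 0.0201 in laf6, against WT values that ran from 0, on 1 array, to 0.125. Its groups overlapped, with a log2 difference of 1.28 ± 0.60 (SE), which was 0.62 as deposited. It ranked 2283 to 2645 on laf6 arrays and 2432 to 2935 on WT arrays. The feature listing AT1G78930 and AT5G55580 was at 0 on laf6 replicates 1 and 2, ran up to 0.350 on the other laf6 arrays and from 0.121 to 0.405 on WT arrays, and also overlapped between the groups. Its log2 difference was -1.40 ± 1.14 (SE), opposite in sign to that of the single-gene mTERF9 feature. The size of that value depends on the 2 laf6 arrays at the floor. The normalized means were nearer, at 0.188 in laf6 and 0.206 in WT.

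To see how the rest of both families behaved, the other measured PPR and mTERF genes were taken from a list of gene codes for each family. The lists were drawn up with earlier results of these data known. The PPR list held 28 gene codes and the mTERF list 21, and each had 6 genes with a single-gene feature, the 4 genes above included. That left 4 other PPR and 4 other mTERF genes, tested with limma and Benjamini-Hochberg adjustment over all 3439 features at a threshold of 0.05. Of these 8 genes 1 rose, none fell and 7 did not pass, while 26.2% of all features passed, 12.4% higher and 13.8% lower. At an unadjusted limma p under 0.05, 1 of the 8 was higher and 1 lower. The unadjusted share of all features was not counted, so 26.2% is not the background for that count. The 4 genes chosen for their difference had been taken out of the 8, while the share of all features keeps such features. This lowers the share among the 8 by construction, so no conclusion is drawn from the comparison. The median log2 difference was 0.30 over the 4 other PPR genes, -0.34 over the 4 other mTERF genes and -0.02 over all features. The lists of plastid transcription genes (20 codes) and of organelle RNA processing genes (23 codes) had no single-gene feature.

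The gene that rose was OTP70, a PPR gene whose product is needed for splicing of the chloroplast rpoC1 transcript. Its normalized intensity in laf6 was 0.447 at the lowest, 0.552 at the median and 0.941 at the highest, against 0.355, 0.375 and 0.493 in WT. The groups overlapped, with 3 of 6 laf6 arrays above every WT array. OTP70 had a log2 difference of 0.60 ± 0.19 (SE), with a limma adjusted p = 0.0372, and its call did not hold as deposited (0.15, limma adjusted p = 0.589). Nor did it hold with adjacent replicate numbers averaged to 3 samples a group, in case they are repeats of 1 sample (limma adjusted p = 0.192). With the replicate number as a block the call was lost too (limma adjusted p = 0.0793).

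The laf6 arrays of replicates 5 and 6 carried much of the OTP70 difference, with a normalized mean of 0.838 in laf6 against 0.387 in WT. For replicates 1 and 2 the means were 0.535 in laf6 and 0.431 in WT, and for replicates 3 and 4 they were 0.468 in laf6 and 0.360 in WT. Leaving out replicates 5 and 6 of both groups was chosen after seeing this and lowers the difference by construction, to 0.35 (limma adjusted p = 0.201). Leaving out replicates 1 and 2 of both groups gave 0.73 (limma adjusted p = 0.0804). The call was also lost on leaving out any 1 of laf6 replicates 2 and 6 and WT replicates 2 to 6, with limma adjusted p up to 0.0756.

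**Figure D3:**
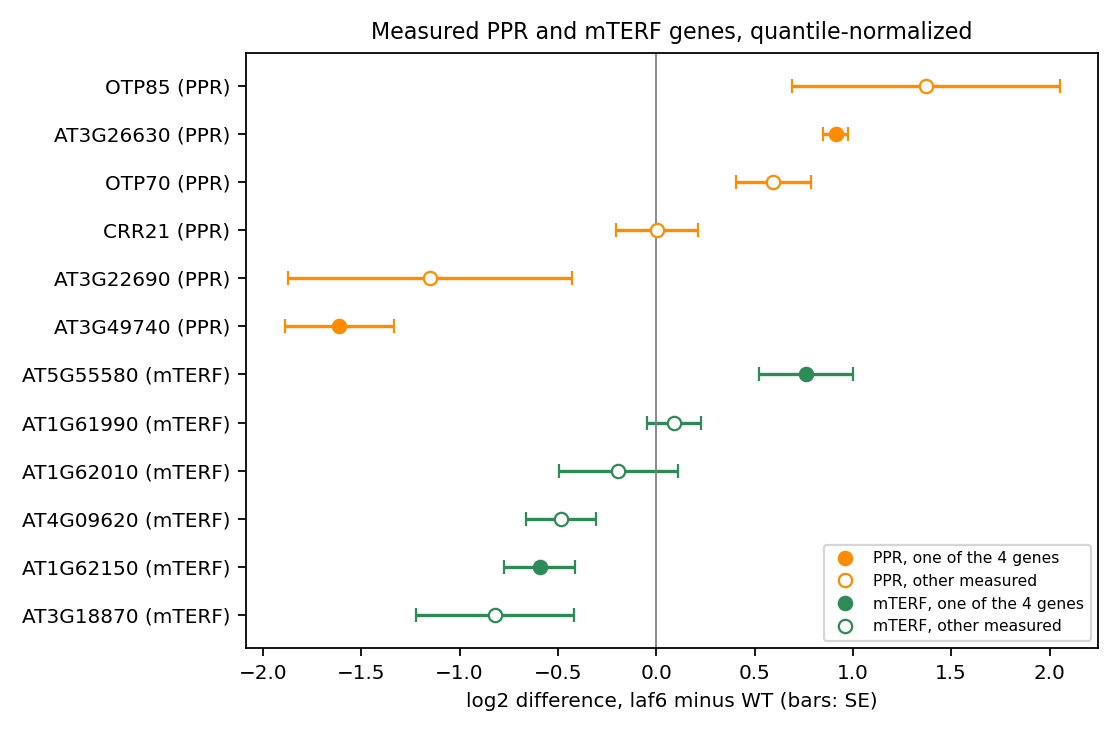
Log2 difference, laf6 minus WT, of the 12 measured PPR and mTERF genes after quantile normalization. Filled points are the 4 genes chosen for their difference, open points the 8 other measured genes, and bars are SE (6 laf6 and 6 WT arrays). The points of OTP85 and AT3G22690 rest on arrays at the floor and their size depends on it. The open points lie on both sides of 0, and OTP70 at 0.60 is the only one of them past the threshold.

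The other PPR genes with a known editing role did not pass. CRR21, needed for editing of the chloroplast ndhD transcript, had normalized intensities of 0.463 ± 0.0961 in laf6 and 0.468 ± 0.119 in WT (SD, n = 6 each), with a log2 difference of 0.00 ± 0.21. OTP85, also an editing factor for ndhD, was listed at 0 on 3 of 6 laf6 arrays and 5 of 6 WT arrays, with 0.0631 as its highest laf6 value and 0.0116 as its only WT value above 0 (limma adjusted p = 0.178). AT3G22690, an editing factor for the plastid RNA polymerase transcript rpoB, had a value of 0 on each of the 6 laf6 arrays and on 4 of 6 WT arrays, the other WT arrays standing at 0.0393 and 0.109 (limma adjusted p = 0.292). For OTP85 and AT3G22690 most arrays were at 0, so no fold is given.

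Among the other mTERF genes AT4G09620 came closest to the threshold. Its normalized intensity was 0.927 ± 0.254 in laf6 and 1.27 ± 0.167 in WT (SD, n = 6 each), a log2 difference of -0.48 ± 0.18 (limma adjusted p = 0.0678), and 4 of 6 laf6 arrays lay below every WT array. As deposited every laf6 array lay below every WT array, which was so for 17.1% of all features. In that setting the gene passed (-0.93, limma adjusted p = 0.00135), 1 of 903 among 3439 features called lower. The median of all features was itself shifted there. With median scaling AT4G09620 also passed (-0.53, limma adjusted p = 0.0309). It did not pass with 75th percentile scaling (limma adjusted p = 0.0510) or cyclic loess (limma adjusted p = 0.0942). Leaving out laf6 replicate 5 or laf6 replicate 6, its highest laf6 arrays, gave a limma adjusted p = 0.0333 and 0.0269. It passed under 5 of 24 alternatives. Its laf6 arrays of replicates 5 and 6 were again the highest, with a normalized mean of 1.23 against 0.839 for replicates 1 and 2 and 0.712 for replicates 3 and 4. Leaving out these replicates of both groups, again chosen after seeing the values and bound to lower laf6, gave -0.63 (limma adjusted p = 0.0234), and leaving out replicates 1 and 2 gave -0.54 (limma adjusted p = 0.160).

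AT3G18870 had a log2 difference of -0.82 ± 0.40 (limma adjusted p = 0.174), with laf6 values spread from 0.0299 to 0.189 and WT values from 0.139 to 0.197. Without laf6 replicate 1, its lowest array, the difference of AT3G18870 was -0.48. AT1G61990 and AT1G62010 lie in the same stretch of chromosome 1 as AT1G62150. In the RefSeq gene table this stretch holds 19 protein-coding genes from AT1G61960 to AT1G62150, of which 9 are on the mTERF list and 3 had a single-gene feature. AT1G61990 differed by 0.09 ± 0.14 (limma adjusted p = 0.688) and AT1G62010 by -0.19 ± 0.30 (limma adjusted p = 0.702), against -0.59 ± 0.18 for AT1G62150. The sign of AT1G62010 rested on single arrays: it was 0.04 without laf6 replicate 1 and -0.39 without laf6 replicate 2. Whether these values differ between the 3 genes was not tested. Related genes of such a cluster can cross-hybridise, and probe sequences were not used here, so the signal of each may hold a share from its neighbours.

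**Figure D4:**
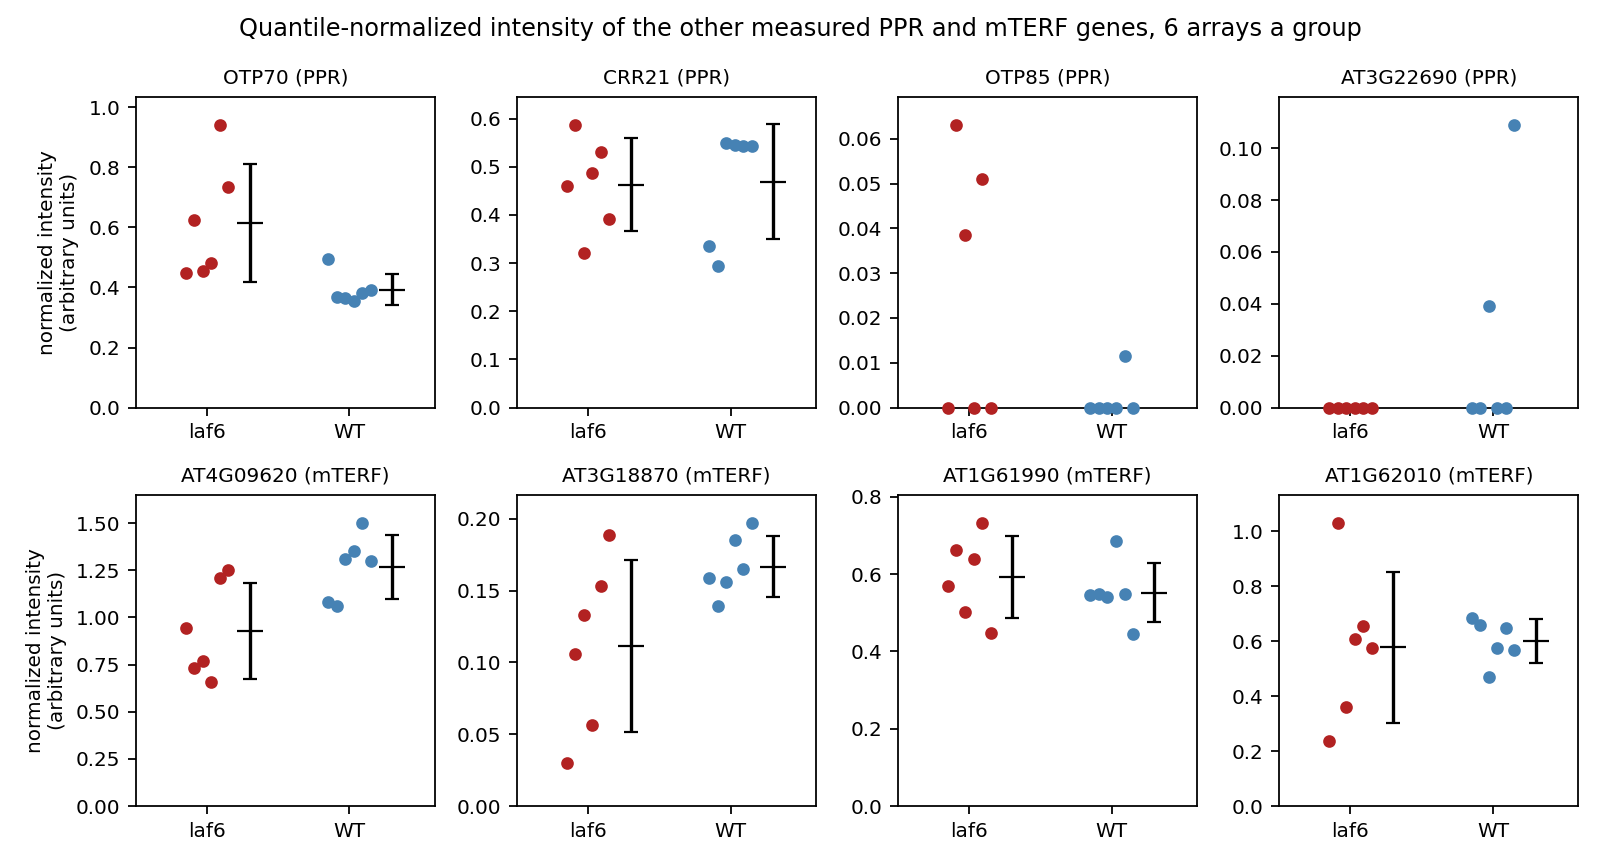
Quantile-normalized intensity (arbitrary units, linear axes from 0) of the 8 other measured PPR and mTERF genes. Points are the 6 laf6 and 6 WT arrays, and the black bar is the mean ± SD, left out for OTP85 and AT3G22690, which have arrays listed at 0. In each panel the ranges of laf6 and WT overlap, and the highest OTP70 value is a laf6 array at 0.941.

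The genes with the most similar pattern were looked for among the other 533 single-gene features with a signal on at least 10 of 12 arrays, by the Pearson correlation of log2 normalized intensity over the 12 arrays. This likeness includes the group difference that chose the 4 genes, so the correlation of deviations from the group means is given beside it. For AT3G26630 the closest were AT4G05070 (0.98, and 0.47 for the deviations) and AT5G38360 (0.97, and 0.32). AT5G38360, also a bright feature, stood at a normalized 71.3 ± 8.12 in laf6 and 31.4 ± 2.78 in WT (SD, n = 6 each). For AT3G49740 they were AT3G50180 (0.94, and 0.72) and AT4G27700 (0.94, and 0.75).

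For mTERF9 the closest were AT1G05340 (0.84, and 0.76 for the deviations) and AT3G51510 (0.78, and 0.56). For AT1G62150 they were CUTA (0.94, and 0.89) and AT4G22490 (0.87, and 0.73). CUTA, a homologue of a bacterial copper tolerance protein, followed AT1G62150 within the groups more closely than any other of these 8 genes followed its own partner, and it stood at 0.709 ± 0.190 in laf6 and 1.33 ± 0.206 in WT (SD, n = 6 each). None of these correlations was tested.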

How the data were processed

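Total RNA of dark-adapted laf6 and WT plants was measured on 12 arrays, 6 per group, grouped by sample titles. The authors deposited linear intensity values for 3439 features, with a highest value of 100 on every array. Their scanner, background correction and scaling are not stated in the labels or the table. The older platform annotation lists 1 gene for 692 features, several for 870 and none for 1877. Of the 692, 690 matched the RefSeq table of assembly TAIR10.1 by Entrez identifier.

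Intensities were quantile normalized (limma 3.58.1, R 4.3.3), raised to the 1st percentile of the positive values (0.00597) and converted to log2. The whole table was fitted with lmFit and eBayes without covariates; p-values are two-sided and Benjamini-Hochberg adjusted over all features. The 4 genes and the lists were chosen with earlier results of these data known, so no p is given for the 4. Named genes are those 4, the measured genes of both lists and, for each of the 4, the 2 most correlated genes. List codes were matched to genes; keywords added none, and a keyword list of organelle translation genes therefore had no measured member. Protein and promoter sequences were not used here.

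On simulated arrays with 200 of 3439 features changed, the fit recovered 8% of features changed by 0.5 on the log2 scale, 36% at 1, 46% at 2 and 66% at 4, and 2 of 80 calls were false. Changes of each size were thus missed in part, the smallest most often. The simulation changed 200 features, while 901 passed on the real arrays, so these shares may not carry over to them. The number of arrays limits the precision.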

Additional observations from a re-analysis of the deposited data

Results flagged for a closer look

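In 27 groups of 6 arrays (the 12 PPR and mTERF genes and the 2 features listing several genes, laf6 and WT apart, leaving out 1 group wholly at the floor), the highest or lowest array was compared with its nearest neighbour. In 2 groups 1 array lay far from the others, where chance gives about 1 in 20. For OTP70, WT replicate 1 lay above the other WT arrays, at a log2 normalized intensity of -1.02. For OTP85, WT replicate 5 stood at -6.43 while the other 5 WT arrays were at the floor of -7.39, where any signal stands apart. None of the 4 genes AT3G26630, AT3G49740, mTERF9 and AT1G62150 had such an array in either group.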

How the results depend on the processing

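AT3G26630, AT3G49740, mTERF9 and AT1G62150 each kept their direction under the 23 alternatives run. Moves were set against the pooled SD of each gene's quantile-normalized log2 values, which was narrow for AT3G26630 (0.07, against 0.50 for AT3G49740). The log2 difference of AT3G26630 moved by more than this spread with the values as deposited (1.22), median scaling (1.62), 75th percentile scaling (1.65) and cyclic loess (0.99). That of AT3G49740 did as deposited (-2.37) and with an offset before log2 (-0.78), and that of AT1G62150 as deposited (-1.04). Leaving out 1 array gave 0.86 to 0.96 for AT3G26630, -1.76 to -1.43 for AT3G49740, 0.66 to 0.92 for mTERF9 and -0.69 to -0.51 for AT1G62150. Of the 8 other genes, 1 passed in the main setting, 2 with median scaling (OTP70 and AT4G09620) and 0 to 2 on leaving out 1 array. As deposited 1 passed, AT4G09620 in place of OTP70, and with adjacent replicate numbers averaged 1 passed, OTP85 (limma adjusted p = 0.0141, range over its alternatives 0.0141 to 0.417), a call set by arrays at the floor that is not taken as a difference. OTP70 was lost under 12 of 24 alternatives (0.15 to 0.73, adjusted p 0.0245 to 0.589). By the rule used, arrays were not paired by replicate number in the main fit. Correlations of deviations between same-numbered arrays ran from 0.0966 to 0.184, with 5 of 6 over 0.1. However, 6 of 6 laf6 arrays were closest to the WT array of their own number, so a pairing cannot be set aside. A block for replicate number gave an SE of 0.15 for AT3G49740 and 0.09 for AT1G62150, against 0.28 and 0.18 in the main fit. The SE was 0.07 against 0.06 for AT3G26630 and 0.24 in both fits for mTERF9. With the replicate number as a block, 0 of the 8 genes passed, OTP70 missing at a limma adjusted p = 0.0793. Without replicates 1 and 2 none of the 8 passed (0), and without replicates 5 and 6 there was 1, AT4G09620; both settings were chosen after seeing the data. Over all features 901 passed (428 higher, 473 lower), against 252 higher and 903 lower as deposited, 545 with adjacent replicate numbers averaged, and 172 among single-gene features adjusted alone, where fewer features were tested. Averaging also leaves fewer samples. The cause of the other changes was not tested.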
